A study of Mus musculus with 203 samples.

Results

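The airways of mice exposed to house dust mite (HDM) extract over 11 weeks were compared with the airways of mice that received phosphate buffered saline (PBS) over the same period, both kept in normal air. The libraries were those whose titles read 11-Airway-HDM.AIR (10 libraries) and 11-Airway-PBS.AIR (10 libraries), which are 2 of the 20 groups and 9.85% of the libraries of the series. All mice were female Balb/C, given as 18 to 20 weeks old. HDM was given intranasally on 5 days per week for 3 weeks and, in the longer model, 3 times per week from week 4 to week 11, while the controls received PBS. Air-kept mice served as controls for other groups that inhaled cigarette smoke, and no mouse in the 2 groups received dexamethasone (DEX). Neither group carried a transgene or deletion. The airway was separated from the parenchyma by dissection, so each library is a mixture of all cells left on the dissected tissue.

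HDM extract contains proteases, allergens and microbial products, and repeated inhalation in mice gives airway inflammation with features of asthma. In the type 2 arm, epithelial alarmins such as IL-33 act on innate lymphoid cells and T helper 2 cells, which make IL-4, IL-5 and IL-13, and IL-13 drives mucus production by goblet cells. In the type 17 arm, IL-17A induces chemokines that recruit neutrophils, and B cells that stay in the tissue mature into plasma cells that secrete antibody. With long exposure the airway wall can also be remodeled, through deposition of matrix, changes in smooth muscle and changes in the epithelium.

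Depth was alike in both groups, with 23420597 to 32434934 counts (median 27061581) in libraries of HDM-exposed airways and 23368612 to 34962379 counts (median 29779496) in those of PBS controls. In a principal component analysis of the 500 most variable genes, the first component held 80.2% of the variance and separated the groups, with HDM libraries from 37.8 to 56.4 and PBS libraries from -55.6 to -32.7. Tissue markers were looked at without parenchyma libraries beside them, so they do not test the tissue label. The club cell secretoglobin Scgb1a1 was at 39201 CPM (counts scaled to the size of the library, corrected by the trimmed mean of M-values) or more in every PBS library. Alveolar, cardiac and adipose markers were also present, so the dissected airways held other tissue. Cartilage markers were present as well. Mitochondrial genes took 4.32% to 9.06% of counts in PBS libraries and 3.06% to 4.05% in HDM libraries. Single libraries stood apart, and their codes are used below to name them. HDM library X109 had the highest alveolar type II marker sum of its group and the lowest adipose and cartilage sums, PBS library X65 had the highest B cell and T cell marker sums of its group, and PBS library X5 had the highest Clca1, Muc5ac and Tff1, which are goblet cell genes, of its group.

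Of 18250 genes tested, 1935 were higher (10.6%) and 1558 were lower (8.54%) in HDM-exposed than in PBS-exposed airways (limma-voom, Benjamini-Hochberg adjusted p under 0.05 and a log2 fold change, log2FC, of at least 1 or at most -1). Genes that passed both limits are called higher or lower below, and these 2 shares are the background against which each gene group is read. The median log2FC was 0.00 over all genes tested and the median size among called genes was 1.60. HDM and PBS libraries did not overlap for 1166 of the genes called higher and 540 of those called lower. Over all genes tested, 11.0% had every HDM library above every PBS library and 5.46% had every HDM library below. Without X65, X85, X165 and X109, which were chosen after seeing the data, 2004 genes were higher and 1613 lower. Where the fold limit was tested itself (limma treat against a log2FC of 1), 1085 were higher and 519 lower. Of genes named by rule, Cftr, Col12a1, Col3a1, Crlf2, Slc5a8, Smad6, Acta2, Chil4, Il33, Il5, Akr1c14, Inmt and Cd244a were called but did not pass. The naming rules are given with the processing, and genes chosen after their values were seen, such as Tslp, are not in this list. Several list counts given below fell under that test as well. Higher genes were then 2 of 9 B cell markers, 3 of 10 T cell markers, 6 of 18 T cell activation genes, 6 of 15 lymphoid tissue genes, 4 of 11 genes of the interferon gamma and CXCR3 list, 8 of 18 matrix proteases and inhibitors, 1 of 13 genes of the type 2 list and 1 of 17 genes of TGF-beta and activin signaling, and lower genes were 7 of 18 of xenobiotic metabolism, 2 of 15 of smooth muscle and 0 of 11 ciliated cell markers. Likewise higher under that test were 9 of 12 MHC class II genes, 1 of 10 alveolar type II markers, 0 of 9 dendritic cell markers and 1 of 15 bronchomotor receptors. Lower were 0 of 13 genes of arginine and nitric oxide metabolism and 0 of 17 of TGF-beta and activin signaling. Other lists lost members too. In bulk tissue, fewer cells of a type and less RNA per cell cannot be told apart.

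**Figure D1:**
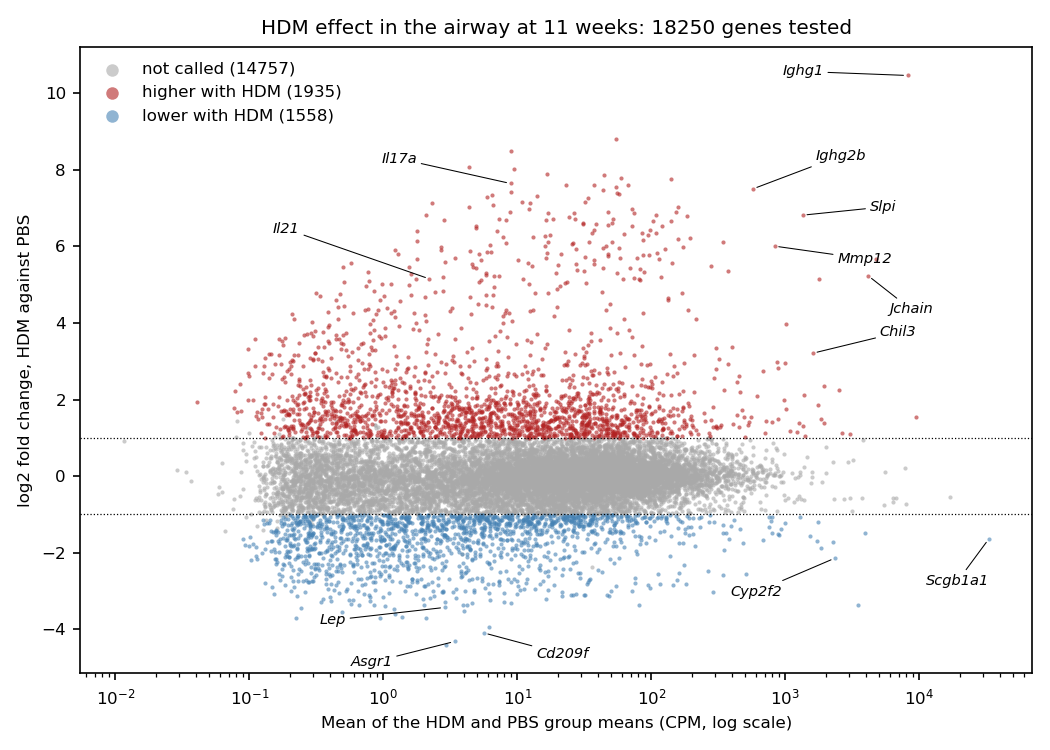
Each point is 1 of 18250 genes, with the mean of the group means in HDM and PBS airways at 11 weeks on the x axis (CPM, log scale) and the log2 fold change of HDM against PBS on the y axis. Red points are the 1935 genes called higher, blue points the 1558 called lower, and dotted lines mark the fold limit. Ighg1 lies alone at the top right at 10.46, and Scgb1a1, the most abundant gene marked, lies at -1.64.

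Antibody genes had the largest differences. Of the 8 largest rises among genes without overlap, all were immunoglobulin genes. Ighg1, the constant region of IgG1, ranged from 9782 to 20839 CPM (median 17927) in HDM airways and from 1.25 to 47.5 CPM (median 13.4) in PBS airways. The groups did not overlap, and the log2FC was 10.46 ± 0.66 (SE, adjusted p = 1.7e-31). The IgG2b gene Ighg2b ranged from 303 to 1926 CPM (median 1105) with HDM and from 2.5 to 19.8 CPM (median 5.43) with PBS (log2FC 7.50 ± 0.63, adjusted p = 1.4e-21). Immunoglobulin genes together took 2.97% to 6.26% of all counts (median 4.86%) in HDM airways and 0.0579% to 0.327% (median 0.0702%) in PBS airways, where the highest share was in X65.

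Nearly all the variable segments that passed the filter were higher. That filter needed the CPM equivalent of 10 counts in only 9 of 160 libraries. A segment could therefore enter through HDM libraries alone, and Ighv1-81, for example, had a PBS mean of 0.0432 CPM. For this reason the counts of higher segments do not show how broad the rise was. Of 92 heavy chain variable genes tested, 91 were higher (median log2FC 6.06), as were 93 of 94 kappa chain (5.51) and 3 of 3 lambda chain variable genes (4.33). The largest rises among them were Ighv1-82 (8.80 ± 1.07), Ighv1-81 (8.48 ± 1.21), Igkv14-130 (8.02 ± 1.45), Ighv1-63 (7.89 ± 1.12), Ighv1-66 (7.87 ± 0.88), Igkv12-98 (7.79 ± 1.00) and Igkv4-74 (7.76 ± 0.67). Single variable segments are near copies of each other, so the share of reads given to each is uncertain.

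In the immunoglobulin and plasma cell list, 16 of 18 members were higher, with a median log2FC of 4.50. Igha, the constant region of the mucosal antibody IgA, ranged from 2064 to 4466 CPM (median 3630) with HDM and from 61.8 to 187.9 CPM (median 95.2) with PBS. Jchain, which joins IgA and IgM into polymers, ranged from 5373 to 11128 CPM with HDM and from 101.8 to 625 CPM with PBS. Pigr, the epithelial receptor that carries these polymers into the lumen, was also higher (log2FC 1.99 ± 0.15, adjusted p = 1.5e-24), with 1341 to 1753 CPM against 263 to 669 CPM.

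IgE was a small part of this antibody RNA. Ighe, the constant region of IgE, ranged from 0.0736 to 1.66 CPM (median 0.591) in HDM airways and from 0 to 0.0897 CPM in PBS airways, with no PBS library above 3 counts. Taken against 3 counts per library it was at least 6.42-fold higher, and with Ighe at that bound the median of the list was 3.77. Plasma cell genes were higher as well, including Mzb1, an endoplasmic reticulum chaperone of antibody-secreting cells (4.60 ± 0.30), Derl3, a component of protein quality control (4.40 ± 0.28), and Irf4, a transcription factor required for plasma cells (2.77 ± 0.18). The B cell markers Ms4a1 and Cd79a were among 9 of 9 B cell markers that were higher (2 of 9 under the limma treat test), with a median log2FC of 1.56, and the marker sum ranged from 436 to 818 CPM with HDM and from 120.3 to 495 CPM with PBS. The only PBS library within the HDM range was X65.

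Spi1 was chosen by the study as a target for inhibition, and 4 genes downstream of it were prioritized there by their difference between HDM and PBS in both tissues. Spi1 encodes PU.1, an ETS family transcription factor of macrophages, neutrophils and B cells. These 4 genes are Il1rn, which encodes the antagonist of the IL-1 receptor, Ptafr, the receptor of platelet-activating factor, Itgax, the integrin CD11c, and Clec7a, the beta-glucan receptor Dectin-1. PU.1 binds purine-rich sites around the PU box GAGGAA. The 250 bases before a RefSeq start site on GRCm38.p6 were searched for this motif on both strands, and Spi1 itself was not analysed in this way. The motif was in the sequences of 2 of the 4 genes searched, and in 23.1% of all 27025 RefSeq promoters of the same length. Both sequences are shown because they carry the match, which is in capitals, and are read 5′ to 3′ on the strand of the gene, with Ptafr at chr4:132563817-132564066 on the plus strand and Clec7a at chr6:129472780-129473029 on the minus strand:

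Ptafr: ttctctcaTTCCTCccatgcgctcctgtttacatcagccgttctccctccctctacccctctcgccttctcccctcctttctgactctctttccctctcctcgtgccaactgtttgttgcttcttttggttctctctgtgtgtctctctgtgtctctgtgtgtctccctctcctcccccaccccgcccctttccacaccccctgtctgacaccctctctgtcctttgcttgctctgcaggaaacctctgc

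Clec7a: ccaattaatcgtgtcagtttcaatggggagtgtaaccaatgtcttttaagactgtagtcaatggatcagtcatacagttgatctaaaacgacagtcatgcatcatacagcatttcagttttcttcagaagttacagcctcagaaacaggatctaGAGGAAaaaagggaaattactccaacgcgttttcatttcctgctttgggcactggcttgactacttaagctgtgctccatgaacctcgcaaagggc

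In Ptafr the match lies on the opposite strand (TTCCTC), with its first base 242 bases before the start site, and in Clec7a it lies on the strand of the gene, 96 bases before one RefSeq start and 90 bases before the other. For Il1rn, with 3 RefSeq starts, and Itgax these letters are not in the window. A match is a description of the sequence and not a binding site.

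All 5 of these genes were higher in HDM airways, with a median log2FC of 3.17 and no overlap between the groups. The study chose them on data from 3 weeks of HDM, and not on the 20 libraries compared here. These data belong to the same series and a related model, so their direction is not taken as independent evidence. Spi1 ranged from 46.3 to 87.4 CPM (median 60.6) with HDM and from 11 to 32.3 CPM (median 18.7) with PBS (log2FC 1.69 ± 0.16, adjusted p = 7.9e-19). Il1rn ranged from 61.5 to 227 CPM (median 120.2) against 4.17 to 18 CPM (median 12), a log2FC of 3.64 ± 0.28 (adjusted p = 9.8e-25). Clec7a ranged from 449 to 1070 CPM (median 681) against 34.9 to 153.4 CPM (median 67), a log2FC of 3.37 ± 0.21 (adjusted p = 3.1e-31).

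Itgax and Ptafr showed the same separation, at log2FC 3.17 ± 0.21 and 2.72 ± 0.17. Macrophage markers were higher as well. The largest log2FC in that list, 3.17, equals that of Itgax, so the list may not be separate from these genes. Of 10 such markers 7 were higher, with a median log2FC of 1.50, and their sum ranged from 11397 to 18190 CPM in HDM airways and from 4032 to 8319 CPM in PBS airways, without overlap. Neutrophil markers were higher in 7 of 9 (sum 308 to 1117 CPM against 55.4 to 403 CPM). The part of these cells in the rise of Spi1 and its downstream genes was not tested.

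**Figure D2:**
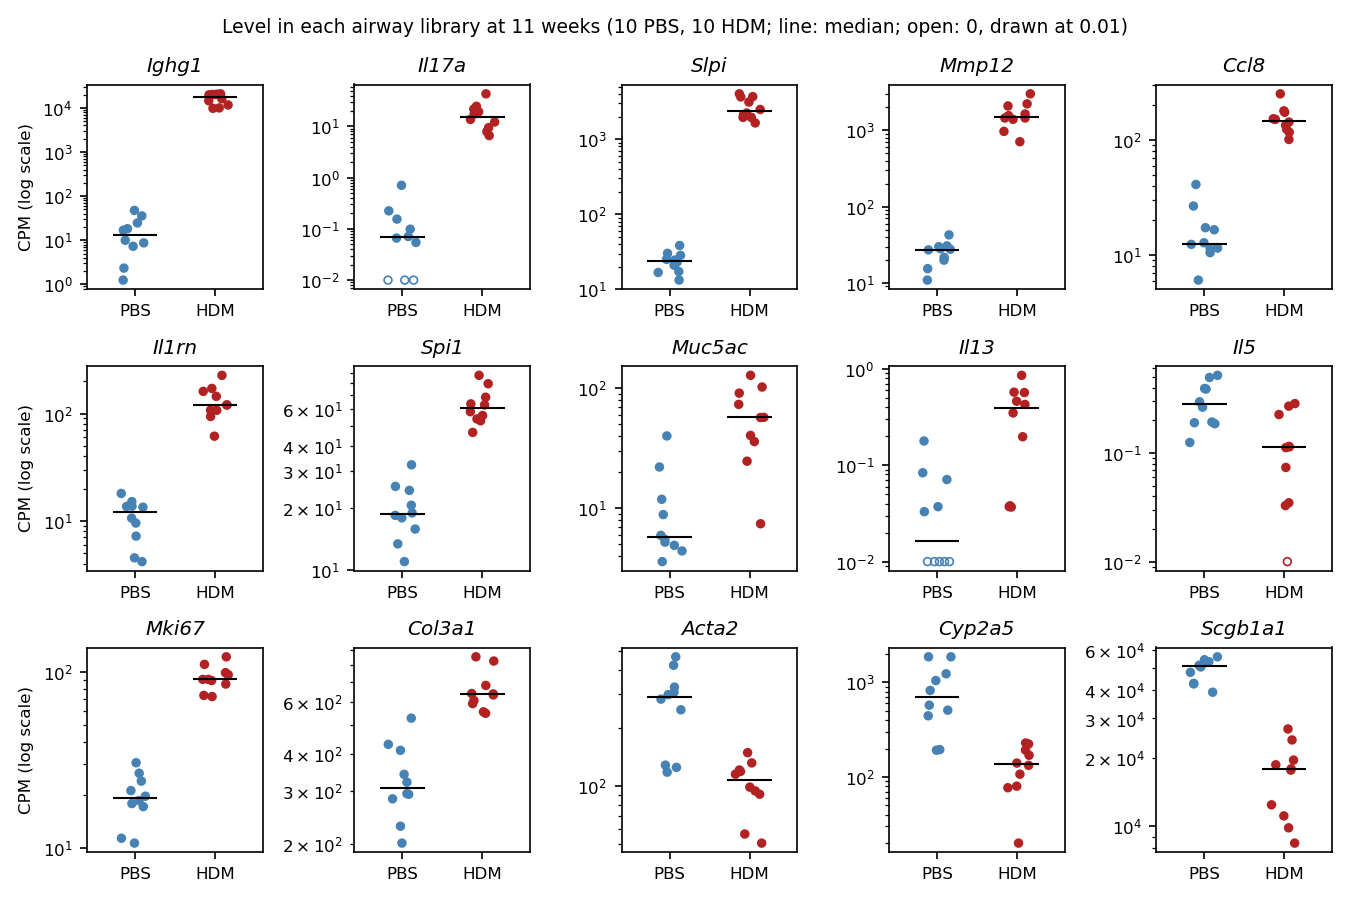
Each point is the level of a gene in 1 airway library at 11 weeks (CPM, log scale) for 10 PBS libraries in blue and 10 HDM libraries in red, with the median as a line and libraries at 0 drawn open at 0.01. Ighg1, Il17a, Slpi, Mmp12, Ccl8, Il1rn, Spi1, Mki67 and Col3a1 are higher in every HDM library, Scgb1a1 is lower in every one, and for Muc5ac, Il13, Il5, Acta2 and Cyp2a5 the groups overlap.

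Genes of IL-17 and neutrophil recruitment rose together, with 13 of 15 members called higher, estimates from 0.97 to 7.64 and a median log2FC of 2.34. Il17a, the cytokine that induces neutrophil chemokines in epithelium, ranged from 6.64 to 43.3 CPM (median 15.5) with HDM and from 0 to 0.709 CPM (median 0.0685) with PBS. Its log2FC was 7.64 ± 0.79 (adjusted p = 3.4e-16), and every HDM library was above every PBS library. Il17f, its relative, ranged from 0.641 to 7.58 CPM against 0 to 0.167 CPM (5.03 ± 0.67, adjusted p = 3.8e-11).

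Targets of IL-17 and neutrophil chemoattractants were also higher. Cxcl5, a chemokine made by epithelium, ranged from 27.7 to 219 CPM (median 138.5) with HDM and from 1.51 to 22.6 CPM (median 7.74) with PBS (3.81 ± 0.52). Lcn2, the iron-sequestering lipocalin, ranged from 1062 to 3546 CPM against 49.2 to 307 CPM (3.98 ± 0.24), and Saa3, an acute phase protein, from 135.7 to 810 CPM against 5.49 to 65.1 CPM (4.33 ± 0.36). Slpi, an inhibitor of neutrophil elastase, had one of the most marked differences among abundant genes, from 1643 to 4008 CPM (median 2354) with HDM and from 13.3 to 38.4 CPM (median 23.8) with PBS (6.81 ± 0.26, adjusted p = 3.9e-54). S100a8 (2.48 ± 0.29) and S100a9 (2.22 ± 0.29) were higher, and PBS libraries X85 and X165 had neutrophil marker sums of 363 and 403 CPM, within the HDM range.

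Monocyte chemokines and receptors were higher in 10 of 13 members, with a median log2FC of 1.89. Ccl3, a ligand of CCR1, ranged from 5.64 to 19.1 CPM (median 12.4) with HDM and from 0.499 to 1.91 CPM (median 1.31) with PBS (3.27 ± 0.39, adjusted p = 6.9e-13). Ccl4, its relative, ranged from 4.85 to 12.2 CPM against 0.606 to 1.35 CPM (3.02 ± 0.36, adjusted p = 3.1e-13). Of the receptors in the list, Ccr1 was higher (2.45 ± 0.17), whereas Ccr2, the receptor of classical monocytes, was at 136.7 to 247 CPM against 55.8 to 120.5 CPM with a log2FC of 1.00 ± 0.19, just under the limit.

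The interferon gamma and CXCR3 list had 7 of 11 members higher and a median log2FC of 1.20, with no member separated in all libraries. Cxcl9, an interferon-induced ligand of CXCR3, ranged from 19.8 to 134.1 CPM (median 39.8) with HDM and from 1.56 to 24.6 CPM (median 4.66) with PBS (3.14 ± 0.49, adjusted p = 8.5e-09). Cxcl11, a second ligand, ranged from 0.574 to 6.18 CPM against 0.0544 to 2.09 CPM (2.82 ± 0.62, adjusted p = 3.0e-05), and 5 HDM libraries were above all PBS libraries. Ifng, the gene of interferon gamma, ranged from 0.604 to 7.66 CPM with HDM and from 0.19 to 0.751 CPM with PBS (2.25 ± 0.38, adjusted p = 9.5e-08).

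Genes of lymphoid tissue formation were higher in 10 of 15 members and lower in 1, with a median log2FC of 1.42. Il21, a cytokine of follicular helper T cells that drives plasma cell formation, ranged from 2.06 to 6.51 CPM (median 4.25) with HDM and from 0 to 0.626 CPM (median 0.0889) with PBS (5.15 ± 0.50, adjusted p = 7.1e-18). Cxcl13, the chemokine of B cell follicles, ranged from 102.7 to 210 CPM against 12.4 to 95.1 CPM (2.33 ± 0.37). Ccl19, which guides CCR7-bearing cells, was called higher (3.35 ± 0.48, adjusted p = 6.8e-10), at 24 to 115.01 CPM (median 43.9) against 0.694 to 75.4 CPM (median 4.48). Only 1 HDM library was above every PBS library, since X65 reached 75.4 CPM. X65 also had the highest sum of this list in either group, at 1791 CPM, against 428 to 1337 CPM in HDM airways. Ccl21a, a second CCR7 ligand, was lower (-1.11 ± 0.34), a call that was lost without X65.

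T cell activation genes were higher in 10 of 18 members (median log2FC 1.32). These were Pdcd1, Tigit, Ctla4, Lag3, Havcr2, Icos, Cd28, Tnfrsf4, Foxp3 and Cd40lg, most of which encode receptors of activated T cells. Pdcd1, the inhibitory receptor PD-1, ranged from 7.35 to 19.6 CPM (median 15.5) with HDM and from 0.418 to 3.04 CPM (median 0.781) with PBS (4.00 ± 0.28, adjusted p = 1.1e-27). Tigit, a further inhibitory receptor, ranged from 4.6 to 9.67 CPM against 0.148 to 1.58 CPM (3.87 ± 0.34, adjusted p = 9.8e-21). The lineage factors Gata3 of T helper 2 cells, at 0.01 ± 0.13 (adjusted p = 0.97), and Tbx21 of T helper 1 cells, at 0.48 ± 0.21 (0.045), were not called. T cell markers were higher in 7 of 10, with sums of 225 to 496 CPM against 74.1 to 409 CPM.

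All 12 genes of MHC class II presentation were higher, within a narrow range from 1.26 to 1.85. Cd74, the invariant chain, ranged from 2133 to 4372 CPM (median 2592) with HDM and from 622 to 864 CPM (median 754) with PBS (1.85 ± 0.15, adjusted p = 3.8e-23). Ciita, the coactivator that switches these genes on, ranged from 50.9 to 96 CPM against 15.9 to 30.3 CPM (1.77 ± 0.18, adjusted p = 8.9e-17). The groups did not overlap for 10 of the 12. B cells, macrophages and dendritic cells all express these genes. Dendritic cell markers were higher in 3 of 9, with overlapping sums of 97.3 to 189.6 CPM and 91.1 to 148.5 CPM.

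The type 2 cytokines were split. In the list of type 2 cytokines, alarmins and receptors, 5 of 13 members were higher, 2 were lower, and the median log2FC was 0.55. Il13, which drives mucus production, ranged from 0.0368 to 0.854 CPM (median 0.387) with HDM and from 0 to 0.178 CPM (median 0.0164) with PBS (2.81 ± 0.53, adjusted p = 1.5e-06), with 7 HDM libraries above all PBS libraries. Il5, the eosinophil growth factor, ranged from 0 to 0.285 CPM (median 0.113) with HDM and from 0.125 to 0.519 CPM (median 0.28) with PBS, and was lower (-1.50 ± 0.41, adjusted p = 7.3e-04). Il4, which drives T helper 2 differentiation, ranged from 0.209 to 1.28 CPM against 0.155 to 0.628 CPM and did not pass (0.55 ± 0.32, adjusted p = 0.13).

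These 3 cytokines were at or under about 1 CPM in most libraries, so each value rests on few reads. Among the alarmins, Il33 was higher at 80.2 to 193.1 CPM (median 134.2) against 48.3 to 83.1 CPM (median 59.4), with a log2FC of 1.06 ± 0.19 (adjusted p = 5.4e-07). That call sits at the limit, since without HDM library X49 the log2FC was just below it. Tslp was lower, at 1.15 to 4.24 CPM against 3.54 to 6.79 CPM (-1.13 ± 0.17, adjusted p = 1.9e-09), while its receptor gene Crlf2 was higher, at 6.03 to 29.2 CPM (median 15.9) against 2.16 to 9.38 CPM (median 5.77) (1.56 ± 0.34, adjusted p = 3.5e-05).

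Chemokines and chemokine receptors of eosinophils and T helper 2 cells differed among themselves. Ccl8, a ligand of CCR8 in mice, ranged from 101.3 to 252 CPM (median 147.5) with HDM and from 6.06 to 41.1 CPM (median 12.6) with PBS (3.40 ± 0.31, adjusted p = 2.8e-19). Ccl1, another CCR8 ligand, ranged from 0.0713 to 0.885 CPM against 0 to 0.124 CPM (2.87 ± 0.47, adjusted p = 3.5e-08). No PBS library held more than 4 counts of Ccl1 and no HDM library more than 27, so this value rests on few reads. Among the eotaxins, Ccl11 was not called, at 2.69 to 49.1 CPM against 5.68 to 25.1 CPM (0.18 ± 0.32, adjusted p = 0.65), and Ccl24 was lower, at 0.455 to 4.38 CPM against 1.51 to 7.37 CPM (-1.55 ± 0.30, adjusted p = 2.9e-06). Eosinophil markers were higher in 2 of 7, and the range of their sum, 35.4 to 86.7 CPM, overlapped that in PBS airways, 18.6 to 64.9 CPM. The whole list of chemokines and receptors had 4 of 9 members higher and 1 lower.

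Goblet cell genes were higher in 7 of 16 members, with a median log2FC of 0.93, and varied widely within each group. Slc26a4, the anion exchanger pendrin, was the member with the largest difference, at 36.7 to 214 CPM (median 84) with HDM and 0.953 to 5.92 CPM (median 4.31) with PBS (4.49 ± 0.42, adjusted p = 5.2e-19), without overlap. Muc5ac, the inducible secreted mucin, ranged from 7.44 to 128.3 CPM (median 57.2) against 3.6 to 40.1 CPM (median 5.74) (2.63 ± 0.29, adjusted p = 8.6e-15). Muc5b, the constitutive mucin, ranged from 49.7 to 408 CPM against 75 to 317 CPM and did not pass (0.29 ± 0.27, adjusted p = 0.36).

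Library X5 held the highest PBS level of several of these genes. Clca1, a goblet cell protease induced by IL-13, ranged from 21.2 to 1648 CPM (median 423) with HDM and from 11.7 to 957 CPM (median 31.3) with PBS (2.93 ± 0.55, adjusted p = 1.2e-06), and the 957 CPM of X5 stood above 7 of the 10 HDM libraries. The next highest PBS library had 128.1 CPM. Tff1, a trefoil peptide of mucus, ranged from 0.455 to 5.3 CPM against 0 to 1.89 CPM (3.91 ± 0.46, adjusted p = 3.4e-13), again with the highest PBS value in X5. Without X5, 9 of the 16 genes were higher. Spdef, the transcription factor of goblet cells, was at 2.87 to 10.2 CPM against 4.04 to 14 CPM (0.03 ± 0.17, adjusted p = 0.87).

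Chitinase-like and alternatively activated macrophage genes were higher in 6 of 13 members and lower in 1. Chil3, the secreted lectin Ym1 of macrophages, ranged from 494 to 8668 CPM (median 1692) with HDM and from 104.9 to 446 CPM (median 225) with PBS (3.21 ± 0.32, adjusted p = 4.8e-17), without overlap. Arg1, an enzyme that uses up arginine, ranged from 4.29 to 80.1 CPM (median 19.1) against 1.22 to 3.48 CPM (median 2.24) (3.06 ± 0.53, adjusted p = 1.8e-07). Cd163, a haemoglobin scavenger receptor of resident macrophages, was lower, at 1.69 to 6.79 CPM against 9.41 to 34.9 CPM (-2.34 ± 0.30).

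Chil4, the epithelial relative of Chil3, had no stable direction. It ranged from 0.663 to 38.3 CPM (median 4.88) with HDM and from 0.0371 to 134.1 CPM (median 0.811) with PBS, where X5 alone held the 134.1 CPM. Its log2FC was 2.67 ± 0.68 (adjusted p = 3.2e-04) in limma-voom, -0.28 (0.74) in edgeR and -0.35 (0.7) in DESeq2, and the limma-voom value without X5 was 3.47. In a limma-voom fit of the 20 libraries alone the log2FC was 2.64 (adjusted p = 0.058). Chil3 and Chil4 are near copies, so reads can be shared between them.

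Among genes of arginine and nitric oxide metabolism, 5 of 13 were higher and 2 lower. Nos2, the inducible nitric oxide synthase, ranged from 18.6 to 131.5 CPM (median 27.5) with HDM and from 2.81 to 11.7 CPM (median 4.14) with PBS (2.92 ± 0.30, adjusted p = 1.3e-16). Arginase 2 (Arg2) and the arginine importer Slc7a2 were also higher (2.33 ± 0.19 and 1.59 ± 0.16), whereas the endothelial synthase Nos3 was lower (-1.02 ± 0.13).

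In the IL-1 family and inflammasome list, 7 of 13 members were higher (median log2FC 1.10), and the largest differences were in inhibitors. Beside Il1rn, the decoy receptor Il1r2 ranged from 7.39 to 19.4 CPM (median 13.2) with HDM and from 0.674 to 3.5 CPM (median 1.29) with PBS (2.95 ± 0.34, adjusted p = 1.4e-13). The agonist Il1b ranged from 46.2 to 143.2 CPM against 8.3 to 28 CPM (2.27 ± 0.29, adjusted p = 5.9e-12). Complement genes were higher in 8 of 16 and lower in 1. C3ar1, the receptor of C3a, ranged from 30.3 to 59.8 CPM against 4.95 to 9.97 CPM (2.63 ± 0.17, adjusted p = 4.7e-31). Cfd, the protease adipsin that is made mainly by fat cells, was lower, at 1.25 to 58.8 CPM (median 32.1) against 91.8 to 375 CPM (median 138.6) (-2.81 ± 0.41, adjusted p = 9.1e-10), beside 9 of 11 adipose markers that were lower.

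**Figure D3:**
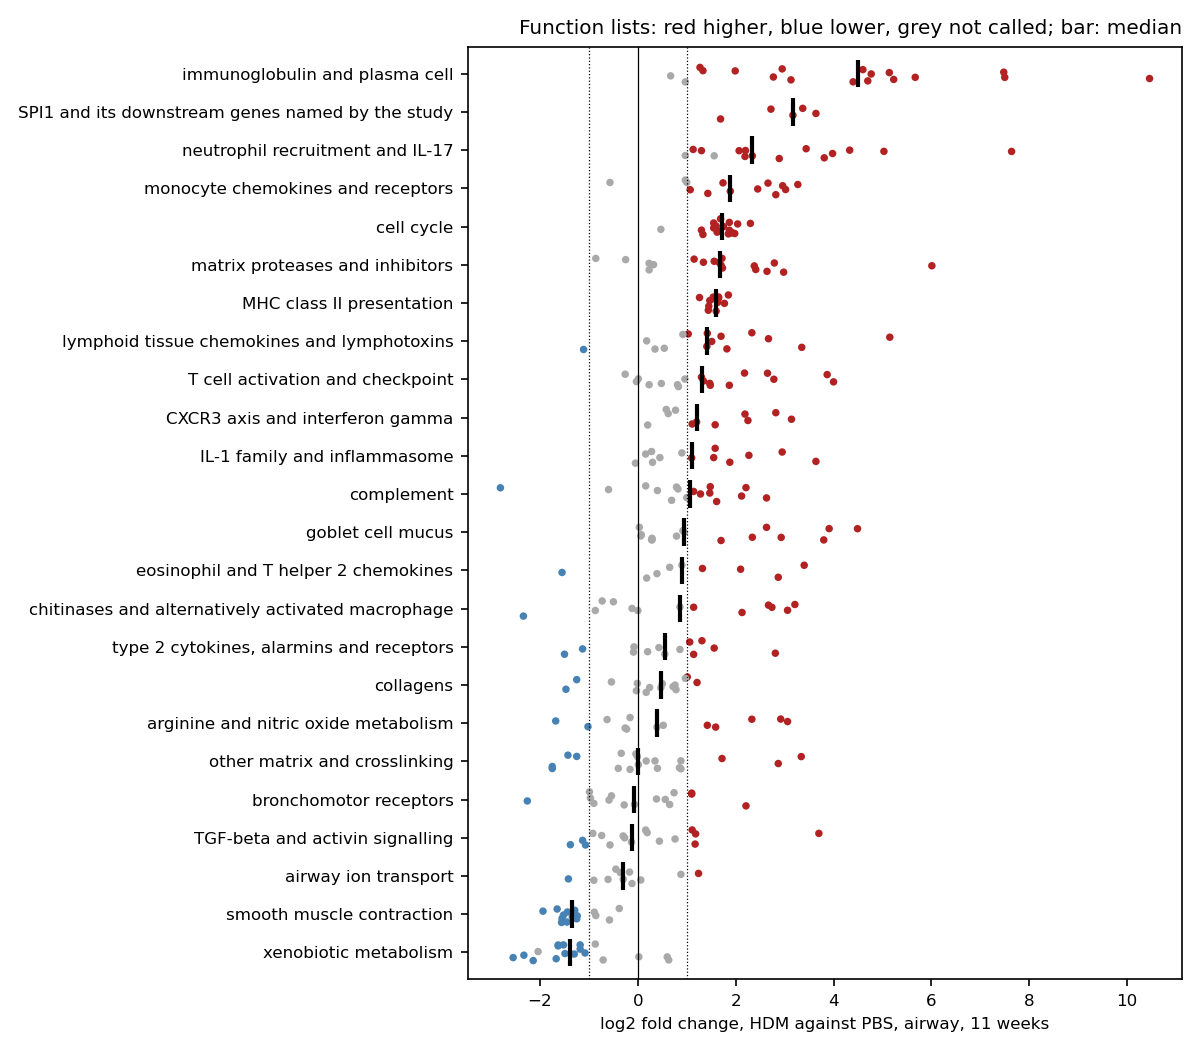
Each point is a member of 1 of 24 function lists, placed by its log2 fold change of HDM against PBS in the airway at 11 weeks. Red members are called higher, blue lower, grey neither, bars are list medians and dotted lines mark the fold limit. The immunoglobulin list has the highest median at 4.50 and the xenobiotic metabolism list the lowest at -1.39.

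Matrix proteases and their inhibitors were higher in 13 of 18 members, with a median log2FC of 1.68. Mmp12, the macrophage metalloelastase, ranged from 706 to 2989 CPM (median 1496) with HDM and from 10.9 to 42.6 CPM (median 27.4) with PBS (6.01 ± 0.29, adjusted p = 2.2e-41). Ctss, the elastin-degrading cathepsin S, ranged from 928 to 2035 CPM (median 1589) against 126.4 to 270 CPM (median 195.3) (2.98 ± 0.14, adjusted p = 1.2e-43). Neither gene had overlap between the groups. Of the inhibitors, Timp1 was higher (2.64 ± 0.37) while Timp2 and Timp3 were at -0.25 ± 0.06 and -0.86 ± 0.12.

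Of 15 collagens 2 were higher and 2 lower, close to the shares over all genes, and the median log2FC was 0.47. By adjusted p alone 6 more were higher and 1 more lower, and under the limma treat test no collagen was higher and 1 was lower. The number higher was 1 without X9, X129, X169 or X45 and 3 without X105. Col3a1, a fibrillar collagen, ranged from 550 to 852 CPM (median 636) with HDM and from 200.8 to 529 CPM (median 308) with PBS, and its log2FC of 1.01 ± 0.19 (adjusted p = 2.5e-06) was called. The estimate fell to between 0.92 and 1.00 without X9, X29, X129 or X169 among HDM libraries or X25, X45, X85 or X165 among PBS libraries, to 0.98 in edgeR and to 0.94 in DESeq2, which ended the call. Col1a1, the main fibrillar collagen, ranged from 103.9 to 234 CPM (median 142.8) against 51.8 to 201.6 CPM (median 87.1) and was not called (0.72 ± 0.18, adjusted p = 1.7e-04).

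The fibril-associated collagens Col14a1 (-1.47 ± 0.16, adjusted p = 2.4e-15) and Col12a1 (-1.25 ± 0.19, adjusted p = 2.0e-09) were lower. Col14a1 ranged from 21.5 to 39.6 CPM with HDM and from 50.5 to 139.1 CPM with PBS, without overlap. Among 19 other matrix and crosslinking genes 3 were higher and 4 lower. Spp1, osteopontin, ranged from 321 to 1002 CPM (median 482) against 26.3 to 96.3 CPM (median 54.4) (3.34 ± 0.28, adjusted p = 2.1e-21), and Thbs4, a matrix glycoprotein, from 4.59 to 29.1 CPM against 0.595 to 6.3 CPM (2.87 ± 0.43, adjusted p = 2.0e-09). The proteoglycan Dcn was lower (-1.75 ± 0.28). Fibroblast markers moved with these falls, at 4 of 10 lower and a sum of 711 to 1068 CPM against 985 to 1423 CPM, and their part in the result was not tested.

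In TGF-beta and activin signaling, 4 of 17 members were higher and 3 lower. Inhba, the activin A subunit, ranged from 7.64 to 55.2 CPM (median 27.2) with HDM and from 1.08 to 3.25 CPM (median 1.64) with PBS (3.70 ± 0.41, adjusted p = 1.3e-14). Tgfb1 was also higher, at 54 to 94.7 CPM against 21.3 to 46.7 CPM (1.17 ± 0.15). The inhibitory Smad6 was lower, at 16.2 to 42.8 CPM against 33.3 to 120.1 CPM (-1.38 ± 0.23, adjusted p = 5.8e-08), as was Ccn2, the connective tissue growth factor (-1.07 ± 0.16).

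Smooth muscle genes were lower. Of 15 contractile genes, 11 were lower and the median log2FC was -1.34, with estimates from -1.94 to -0.38. Acta2, smooth muscle actin, ranged from 50.5 to 148.9 CPM (median 106.9) with HDM and from 117.9 to 468 CPM (median 290) with PBS (-1.34 ± 0.22, adjusted p = 4.9e-08). Cnn1, calponin, ranged from 9.64 to 57.1 CPM (median 30.7) against 41.5 to 236 CPM (median 128.7) (-1.94 ± 0.26, adjusted p = 4.0e-11). Myl9, a myosin light chain, ranged from 23.7 to 69 CPM against 73.4 to 253 CPM, without overlap (-1.65 ± 0.22, adjusted p = 4.7e-11).

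Markers of cardiac muscle and fat, and those of cartilage, moved the same way. Cardiac muscle markers were lower in 13 of 14 (median log2FC -2.71), and their sum ranged from 118.1 to 785 CPM with HDM and from 483 to 4701 CPM with PBS. Adipose markers were lower in 9 of 11 (median -2.72), with sums of 20.2 to 414 CPM against 534 to 3882 CPM, without overlap. Cartilage markers were lower in 7 of 11 (median -1.68), with sums of 17.8 to 70 CPM against 45.2 to 176.6 CPM. The part of these tissues in the lower smooth muscle genes was not tested.

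The largest falls among genes without overlap were of mixed origin. Asgr1, an asialoglycoprotein receptor, ranged from 0.186 to 0.626 CPM (median 0.28) with HDM and from 4.78 to 9.75 CPM (median 6.08) with PBS (-4.31 ± 0.30, adjusted p = 2.0e-27). Cd209f and Cd209g, C-type lectins of the DC-SIGN family, fell by 4.09 and 3.94 on the log2 scale, from medians of 8.8 and 9.06 CPM to 0.61 and 0.667 CPM. Lep, the fat cell hormone leptin, was lower at 0 to 1.13 CPM against 1.52 to 18.4 CPM (-3.43 ± 0.68, adjusted p = 4.6e-06). Gsta1, a glutathione transferase with close copies, and the genes 4930512H18Rik, Hand2os1 and Lrtm1 made up the rest, at -3.72, -3.69, -3.37 and -3.39. Among abundant genes the secreted airway protein Bpifa1 was lower at a mean of 648 ± 499 CPM (SD, n = 10) against 6304 ± 5909 CPM (-3.36 ± 0.52), and the haemoglobin gene Hbb-bs was lower (-1.72 ± 0.39).

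Receptors that set bronchomotor tone were higher in 3 of 15 members and lower in 1. Chrm2, a muscarinic acetylcholine receptor that is also abundant in heart, ranged from 2.87 to 13.1 CPM (median 9.37) with HDM and from 13.8 to 81.6 CPM (median 38.4) with PBS (-2.26 ± 0.30, adjusted p = 4.2e-11). Chrm3, the muscarinic receptor of airway contraction, was at 3.28 to 5.38 CPM against 5.53 to 8.41 CPM, which did not overlap but was under the fold limit (-0.59 ± 0.12, adjusted p = 8.4e-06). The prostacyclin receptor Ptgir was higher, at 18.6 to 37.4 CPM against 4.62 to 6.88 CPM (2.21 ± 0.19, adjusted p = 2.6e-21). The number of lower genes was 2 or 3 when any 1 of 14 single libraries was left out. Cardiac markers also fell, and their part in the lower Chrm2 was not tested.

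Of 11 genes of ion transport 1 was higher and 1 lower, close to the shares over all genes (10.6% and 8.54%). Cftr, the chloride channel mutated in cystic fibrosis, ranged from 42.2 to 72.6 CPM (median 54.6) with HDM and from 14 to 37.3 CPM (median 25.8) with PBS (1.24 ± 0.16, adjusted p = 2.6e-11). Slc5a8, a sodium-coupled carboxylate transporter, was lower, at 0.626 to 15.9 CPM (median 7.1) against 7.56 to 51.6 CPM (median 15.6) (-1.42 ± 0.36, adjusted p = 3.1e-04).

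Genes of xenobiotic metabolism were lower in 12 of 18 members (median log2FC -1.39). Cyp2a5, a cytochrome P450 with close copies, ranged from 20 to 229 CPM (median 136.6) with HDM and from 192.01 to 1865 CPM (median 698) with PBS (-2.55 ± 0.40, adjusted p = 1.5e-08). Gsta3, a glutathione transferase, ranged from 30.5 to 79.4 CPM (median 56.3) against 204.1 to 452 CPM (median 275) (-2.33 ± 0.22, adjusted p = 9.7e-19). For all 12 lower genes but Cyp2a5, and for 1 gene under the fold limit, Cyp2b10, the groups did not overlap.

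Club cells, the secretory cells that carry much of this metabolism, had lower marker RNA. Scgb1a1, their main secretoglobin, ranged from 8436 to 26966 CPM (median 17854) with HDM and from 39201 to 56218 CPM (median 51140) with PBS (-1.64 ± 0.16, adjusted p = 5.8e-18). Of 8 club cell markers 6 were lower, and their sum ranged from 13728 to 36894 CPM against 48700 to 75999 CPM, without overlap. Ciliated cell markers were lower in 3 of 11, although all 11 estimates lay between -1.15 and -0.64, close to the fold limit, and the count was 6 without X69 and 7 without X9, X129, X169 or X85. Their sum was 392 to 1243 CPM against 1171 to 2138 CPM. The part of these cell types in the lower metabolic genes was not tested.

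Cell cycle genes were higher in 17 of 18 members (median log2FC 1.72), all 17 without overlap. Mki67, a marker of dividing cells, ranged from 72.4 to 121.9 CPM (median 90.7) with HDM and from 10.6 to 30.4 CPM (median 19.1) with PBS (2.30 ± 0.22, adjusted p = 2.7e-18). Aurkb, a mitotic kinase, ranged from 6.38 to 9.77 CPM against 0.925 to 3.59 CPM (2.04 ± 0.20, adjusted p = 5.3e-18). The exception was Pcna, the replication clamp, at 0.47 ± 0.08.

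**Figure D4:**
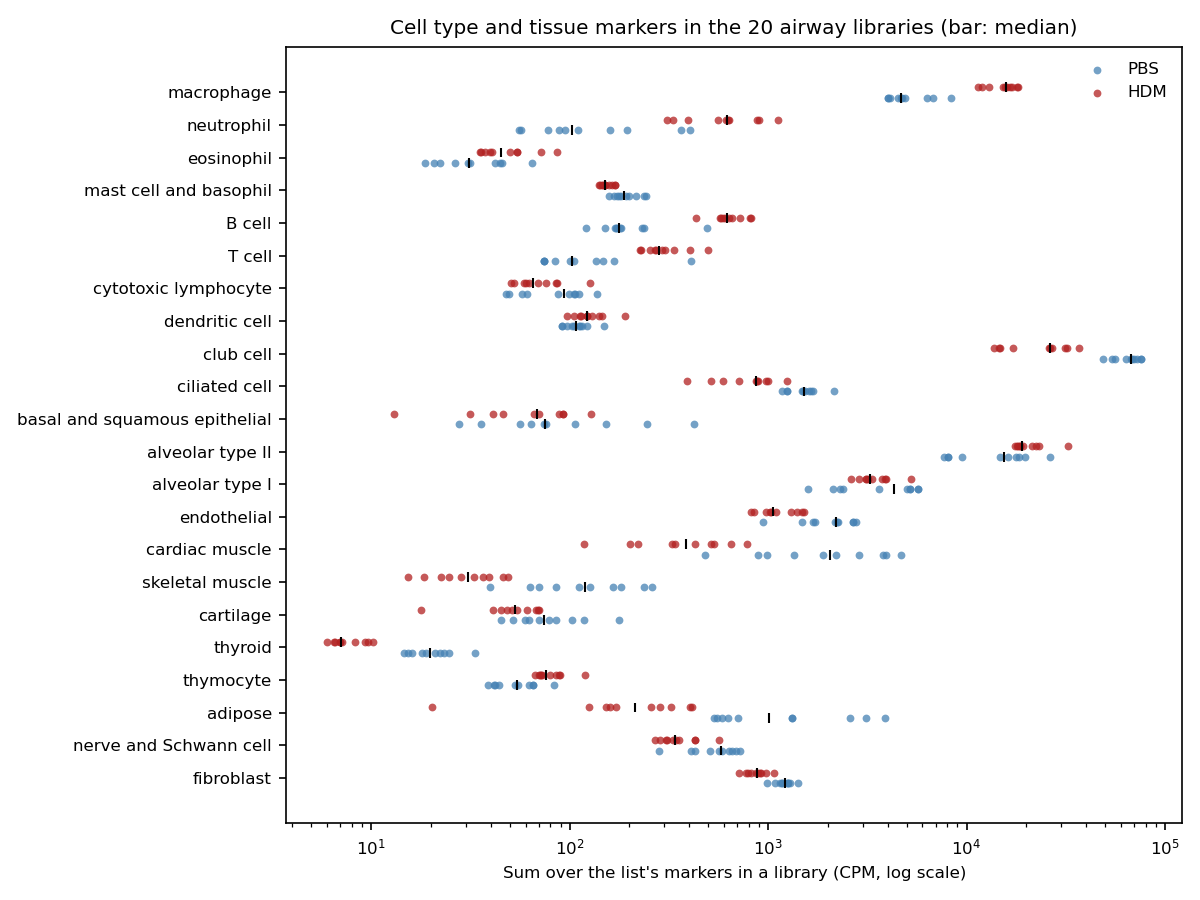
Each point is the sum over 1 of 22 marker lists in 1 airway library at 11 weeks (CPM, log scale), with PBS libraries in blue, HDM libraries in red and the median as a bar. Macrophage sums are higher in every HDM library, and club cell, adipose and thyroid sums are lower in every HDM library.

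Among the other marker lists, alveolar type II markers were higher in 4 of 10 (median log2FC 0.84), with sums of 17497 to 32505 CPM against 7672 to 26488 CPM. Sftpd, which encodes surfactant protein D, was one of them (1.39 ± 0.14), while the canonical marker Sftpc was at 5701 to 12287 CPM against 3531 to 15035 CPM (0.22 ± 0.18, adjusted p = 0.28). Alveolar type I markers had sums of 2626 to 5257 CPM against 1598 to 5692 CPM and a median log2FC of -0.04. Endothelial markers were lower in 4 of 10 and higher in 1, with Lyve1 of lymphatic vessels at -2.08 ± 0.19.

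Mast cell proteases went in opposite directions. Mcpt1, a mucosal mast cell protease, was higher, at 0.847 to 12.9 CPM (median 4.06) with HDM against 0.179 to 4.88 CPM (median 0.422) with PBS (3.03 ± 0.48, adjusted p = 1.5e-08). Mcpt4, a connective tissue mast cell protease, was lower, at 0.348 to 1.61 CPM (median 0.944) against 3.93 to 22.6 CPM (median 6.57), without overlap (-3.03 ± 0.43, adjusted p = 6.3e-10). Over the whole list of mast cell and basophil markers, 2 of 11 were higher and 4 lower, and the sums were 140.5 to 170.2 CPM and 158.5 to 243 CPM. Of the remaining lists, nerve and Schwann cell markers were higher in 1 of 10 and lower in 3, skeletal muscle markers higher in 1 of 9 and lower in 4, basal and squamous markers higher in 3 of 10 and lower in 3, thyroid markers higher in 1 of 4 and lower in 2, and cytotoxic lymphocyte markers higher in 1 of 9. Thymocyte markers had a median log2FC of 0.66 over 4 genes tested, with sums of 67.1 to 120.2 CPM against 38.7 to 83.2 CPM.

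To ask where the airway response differed from that of the parenchyma, the HDM effect in airways was compared with the HDM effect in 10 HDM and 10 PBS parenchyma libraries of the same model, as the difference between both effects. The HDM effect was called more positive in airways for 92 of 18250 genes (0.504%) and more negative for 1362 (7.46%). The 92 became 55 without X5, and the 0.504% became 0.773% without X65, X85, X165 and X109. Of the smooth muscle genes, 12 of 15 were more negative in airways. In parenchyma, where 13.0% of all genes were higher and 6.12% lower with HDM, 4 of the 15 were higher and the median was 0.30. Acta2 was at 102.6 ± 31.3 CPM (SD, n = 10) with HDM and 272 ± 121.5 with PBS in airways, and at 65.2 ± 12.8 and 30 ± 4.7 CPM in parenchyma (difference -2.44 ± 0.31 SE, adjusted p = 4.9e-10). The PBS level in parenchyma was far below that of airways. Cardiac markers were more negative in airways in 7 of 14, ciliated markers in 9 of 11 and goblet cell genes in 6 of 16, and their part in the other differences was not tested.

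Single genes with the smallest p-values showed both kinds. Pigr was higher with HDM in both tissues, at 1551 ± 114.2 against 412 ± 155.1 CPM in airways and 1425 ± 208 against 94.6 ± 47 CPM in parenchyma (difference -2.03 ± 0.21, adjusted p = 1.4e-13). Ccdc80, a matrix protein, was higher with HDM in parenchyma (2.46) and at 0.53 in airways (difference -1.92 ± 0.21), and Slc11a2, an iron transporter, was at 0.46 in parenchyma and -0.68 in airways (-1.13 ± 0.11). In the other direction, Cd244a, a receptor of natural killer cells, was at 11.1 ± 2.86 against 4.3 ± 0.571 CPM in airways and at 5.61 ± 1.59 against 5.33 ± 0.474 CPM in parenchyma (1.30 ± 0.22, adjusted p = 1.7e-06). The adhesion molecule Cntn1 (1.39 ± 0.22) and the condensin subunit Ncaph (1.01 ± 0.17) also had more positive effects in airways, and the call on Ncaph was lost without X89, X129 or X5 (0.95 to 0.98). Immunoglobulin genes were called different in 3 of 18, and Ighg1 did not pass (0.51 ± 0.93, adjusted p = 0.73).

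The same effect was measured after 3 weeks of HDM in 10 HDM and 11 PBS airway libraries of mice given in the labels as equally old. Of 18528 genes, the HDM effect was called more positive at 11 weeks for 564 (3.04%) and more negative for 561 (3.03%). Antibody genes were more positive at 11 weeks in 8 of 18. Ighg1 was at 1392 ± 608 CPM with HDM and 662 ± 1279 with PBS at 3 weeks, and at 16330 ± 4548 and 17.3 ± 14.9 CPM at 11 weeks (difference 7.75 ± 0.89, adjusted p = 2.1e-12). The PBS mean at 3 weeks lay above that at 11 weeks, with an SD larger than the mean. Il17a also had a more positive effect at 11 weeks (3.51 ± 0.90, adjusted p = 0.0013), as did Slpi (3.55 ± 0.39, adjusted p = 3.8e-13).

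Goblet cell, eosinophil chemokine and CXCR3 axis genes held members with a less positive effect at 11 weeks. Goblet cell genes were more negative in 5 of 16, eosinophil and T helper 2 chemokines and receptors in 4 of 9, and CXCR3 axis genes in 6 of 11. Muc5ac was at 253 ± 160.8 CPM with HDM and 10.5 ± 7.6 with PBS at 3 weeks, and at 61.9 ± 37.4 and 11.3 ± 11.6 CPM at 11 weeks (difference -1.81 ± 0.46, adjusted p = 0.0012). Clca1 was at 3717 ± 2707 and 65.3 ± 127.4 CPM at 3 weeks and at 608 ± 589 and 132.8 ± 292 CPM at 11 weeks (-3.59 ± 0.86, adjusted p = 5.6e-04), Il13 at a difference of -2.17 ± 0.75 (0.019) and Cxcl9 at -2.23 ± 0.70 (0.0098). Eosinophil markers were more negative at 11 weeks in 2 of 7.

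The smallest p-values for this difference belonged to other genes, whose PBS means also lay apart at the 2 times. Eif4ebp2, a repressor of translation initiation, was at 33 ± 4.04 CPM with HDM and 11.3 ± 2.69 with PBS at 3 weeks, and at 36.9 ± 4.65 and 31.3 ± 4.6 CPM at 11 weeks (difference -1.35 ± 0.15, adjusted p = 1.9e-13). Snai2, a transcription factor of mesenchymal cells, was at 3.15 ± 0.938 and 12.1 ± 1.88 CPM at 3 weeks and at 4.93 ± 0.863 and 5.88 ± 1.04 CPM at 11 weeks (1.69 ± 0.16, adjusted p = 6.8e-17). Nfib, Ptprd, Rbpj-ps3 and Slc25a30, with differences on the log2 scale of 1.38, 1.41, -2.17 and -1.20, completed the 6 genes. Their PBS means were 396, 53.5, 4.04 and 3.29 CPM at 3 weeks and 211, 43, 13.8 and 7.74 CPM at 11 weeks, and their HDM means were 96.3, 15.6, 26.5 and 9.53 CPM at 3 weeks and 139.1, 33.7, 20.8 and 9.93 CPM at 11 weeks. The 2 time points also differ in the mice and the dosing, which cannot be told apart from the length of exposure.

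Finally, the HDM effect without DEX was compared with that in 10 HDM and 10 PBS airway libraries of mice given the glucocorticoid dexamethasone in week 11. The effect was called more positive without DEX for 200 genes (1.10%) and more negative for 30 (0.164%). Cell cycle genes made up 17 of the 200. All 17 that were higher with HDM alone had a more positive effect without DEX, and with DEX the median log2FC of the list was 0.15. Mki67 was at 92.9 ± 15.2 CPM with HDM and 19.7 ± 6.19 with PBS, and with DEX at 22.8 ± 13.1 and 11.4 ± 2.24 CPM (difference 1.48 ± 0.34, adjusted p = 0.0019).

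Further genes differed, with a more positive or a more negative effect without DEX. Slpi was at 2680 ± 857 CPM with HDM and 23.8 ± 7.36 with PBS, and with DEX at 415 ± 238 and 26.9 ± 6.1 CPM (3.02 ± 0.34, adjusted p = 1.8e-11). Mybl1, a transcription factor of the MYB family, was at 21.4 ± 6.02 against 4.67 ± 0.756 CPM, and with DEX at 3.54 ± 0.949 against 4.21 ± 1.05 CPM (2.40 ± 0.27, adjusted p = 1.8e-11). Edem1, which serves degradation of misfolded glycoproteins, had a difference of 1.04 ± 0.13, and Akr1c14, Inmt and Fgfbp1, all lower with HDM, had differences of -1.09, -1.08 and -1.01. The calls on Edem1 (without X29 or X169) and Fgfbp1 (without X89, X129 or X5) were lost when 1 library was left out. Matrix proteases and their inhibitors were more positive without DEX in 5 of 18, and Col3a1 was at 658 ± 103.3 against 334 ± 99.2 CPM without DEX and 323 ± 92.1 against 354 ± 103.7 CPM with it (1.17 ± 0.27, adjusted p = 0.0025).

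With DEX, HDM airways had 7.95% of all genes higher and 6.24% lower than PBS airways. Smooth muscle genes gave a median log2FC of -1.37 there and 11 of 15 were lower, and Acta2 had a difference of 0.04 ± 0.31 (adjusted p = 0.97). Il17a had a difference of 0.01 ± 1.20 (adjusted p = 1) and Ighg1 of 1.88 ± 0.90 (0.24), both with large standard errors. Spi1 was at 55.4 ± 11.1 against 18.7 ± 5.15 CPM with DEX (difference 0.11 ± 0.22, adjusted p = 0.85), and Clec7a had a difference of 0.99 ± 0.30 (0.033), under the fold limit.

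**Figure D5:**
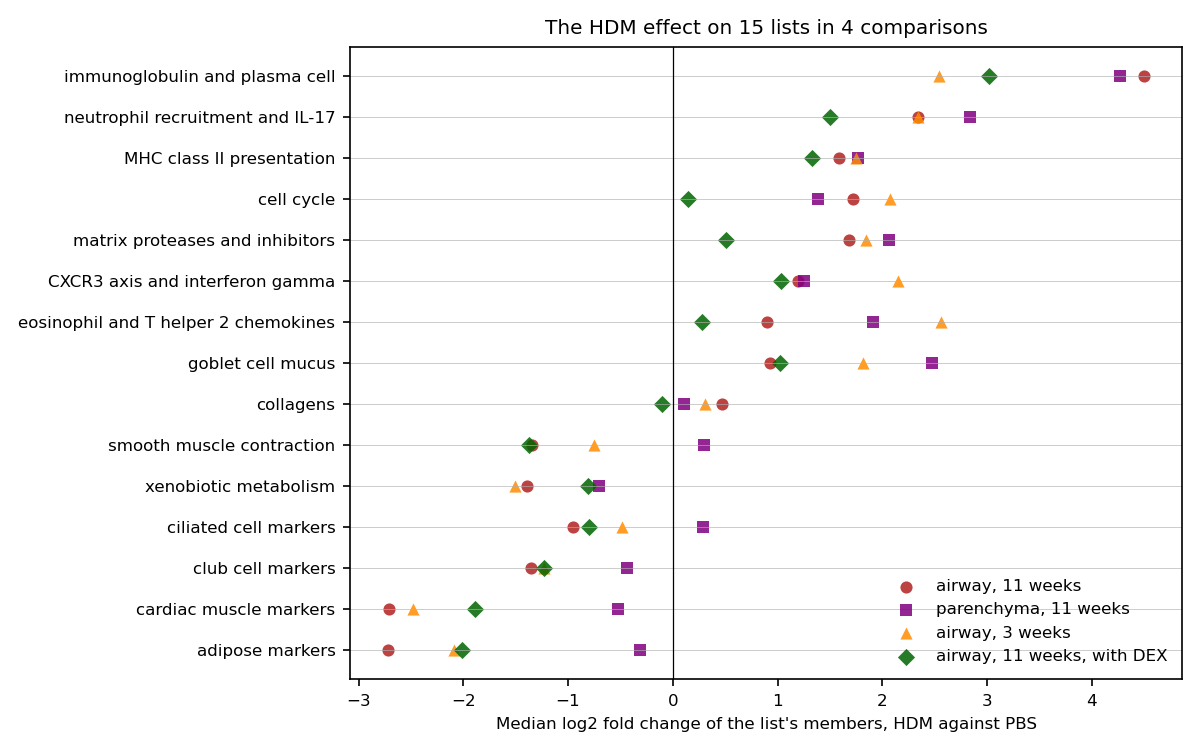
Each symbol is the median log2 fold change of HDM against PBS over the tested members of a list, for airways at 11 weeks (red circles), parenchyma at 11 weeks (purple squares), airways at 3 weeks (orange triangles) and airways at 11 weeks with DEX (green diamonds). Cell cycle genes lie at 1.72 without and 0.15 with DEX, smooth muscle genes at -1.34 in airways and 0.30 in parenchyma, and goblet cell genes at 0.93 at 11 weeks and 1.82 at 3 weeks.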

How the data were processed

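Per the labels and the study's methods, RNA from dissected airways was sequenced and aligned to mm10, and the submitters' processing notes name bcl2fastq 2.20.0.422, STAR 2.5.1b, RSEM 1.2.31 and kallisto 0.44.0. The authors deposited 1 table of estimated counts per gene (43346 identifiers, 203 libraries, not normalized). Which quantifier made it and the strand setting are not given in the sources used here. Estimated counts were rounded to whole numbers, since 20.3% of non-zero values were not whole. Genes were tested with limma-voom (limma 3.58.1, edgeR 4.0.16 for TMM, R 4.3.3) in 1 fit of the 160 libraries at 11 weeks, with 1 mean for each of 16 groups, keeping genes at the CPM equivalent of 10 counts in at least 9 libraries. The difference from 3 weeks used all 203 libraries and 20 groups. Differences between HDM effects were contrasts of these fits, and p-values were adjusted by Benjamini-Hochberg over all genes tested. The scripts were tested on simulated data. CPM values are scaled by TMM, over the 160 libraries for levels at 11 weeks and over all 203 for levels at 3 weeks. Errors of log2FC are standard errors, and total counts per library were 23368612 to 34962379 in the 20 libraries compared and 13003087 to 40240680 over the 160 libraries at 11 weeks.

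The labels do not say how the mice were housed or processed in batches, and library codes do not tie tissues to 1 mouse. Each library was therefore treated as 1 replicate, and p-values rest on the spread between libraries within all groups of a fit. Libraries of a group differed by more than counting noise (chi-square per degree of freedom at least 14.3). The comparison and its 46 gene lists (551 of 579 entries tested) were chosen with earlier results of these data known. Named genes were the 8 largest rises and falls without overlap and at 1 CPM or more, the 2 called members of each function list with the largest log2FC, a set of 18 genes, and, for every difference between effects, the 3 genes with the lowest p-value on either side. All other genes given with values, such as Igha, Jchain, Ighe, Lcn2, Saa3, Cxcl5, Tslp, Ccl24, Cd163, Mcpt1, Mcpt4, Bpifa1 and Hbb-bs, were chosen after their values were seen. Alternatives changed the normalization, filter, libraries, weights, blocks, test (edgeR, DESeq2 1.42.0, limma treat) and left out each library in turn. Near copies share reads, and without strand antisense genes such as 4930512H18Rik cannot be told apart from overlapping genes. Promoters came from RefSeq (GRCm38.p6).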

Additional observations from a re-analysis of the deposited data

Results flagged for a closer look

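In 230 tests for a library far from the others of its group (Dixon's ratio above its 95% critical value for 10 libraries, on log2 CPM with 0.1 added), 22 values stood out, where chance gives about 1 in 20. The lowest or highest HDM value was in X109 for Lep (0 CPM), Cfd (1.25 CPM), Cyp2a5 (20 CPM), Slc5a8 (0.626 CPM), Mybl1 (6.88 CPM), Cntn1 (1.69 CPM) and Cd74 (4372 CPM). The same library had the highest alveolar type II sum (32505 CPM) and the lowest cartilage (17.8 CPM) and adipose sums (20.2 CPM). HDM library X89 had the highest Ccl19 (115.01 CPM) and thymocyte sum (120.2 CPM) and the lowest Ccl3 (5.64 CPM).

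Among PBS libraries, X5 had the highest Chil4 (134.1 CPM), Tff1 (1.89 CPM) and Fgfbp1 (55.5 CPM) and the lowest Ccl3 (0.499 CPM) and Ncaph (3.17 CPM). X65 had the highest B cell (495 CPM) and T cell sums (409 CPM), X125 the highest Nos2 (11.7 CPM) and X145 the lowest Slc26a4 (0.953 CPM).

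The HDM effect differed from that in parenchyma by a test of the difference itself for 92 genes in the positive and 1362 in the negative direction. These include Ccdc80 (-1.92), Pigr (-2.03), Slc11a2 (-1.13), Cd244a (1.30), Cntn1 (1.39) and Ncaph (1.01). It differed from that at 3 weeks for 564 and 561 genes, including Eif4ebp2 (-1.35), Rbpj-ps3 (-2.17), Slc25a30 (-1.20), Nfib (1.38), Ptprd (1.41) and Snai2 (1.69). It differed from that with DEX for 200 and 30 genes, including Slpi (3.02), Mybl1 (2.40), Edem1 (1.04), Akr1c14 (-1.09), Inmt (-1.08) and Fgfbp1 (-1.01).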

How the results depend on the processing

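In the HDM comparison, the genes called ranged from 1669 to 2340 higher and from 1350 to 1914 lower under the other normalization, filter, library sets, weights, blocks and tests, except under a filter of 10 CPM (8.25% and 5.29% of genes tested) and the treat test (5.95% and 2.84%). Fewer genes were tested under the 10 CPM filter, which also gave 0.246% and 4.32% against parenchyma, 1.67% and 1.67% against 3 weeks and 0.394% and 0.107% against DEX. With quality weights 0.334% of genes had a more positive effect than in parenchyma and 0.493% a more negative effect than with DEX, and without X65, X85, X165 and X109 the first share was 0.773%. The cause of these changes was not tested, beyond the smaller number of genes under the filter. When each library was left out in turn, 9.97% to 10.9% of genes were higher and 7.91% to 9.39% lower. Against parenchyma the shares were 0.302% (without X5) to 0.734% and 6.58% to 8.13%, against 3 weeks 2.78% to 3.22% and 2.77% to 3.37%, and against DEX 0.910% to 1.21% and 0.121% to 0.230%. Chil4 reversed in edgeR (-0.28) and DESeq2 (-0.35), with adjusted p-values of 0.74 and 0.7. Of 1214 values for named genes under the alternatives, 1187 kept direction and call, 25 lost the call and 2 reversed, and of 2220 with 1 library left out, 2203 kept both. List counts stayed within 1.5 times in 1014 of 1104 and 1804 of 1840. Depth limits the type 2 cytokines, which lie at or under about 1 CPM. HDM and PBS libraries come from different mice and were not paired. The labels do not say which airway and parenchyma libraries come from 1 mouse, so the difference between tissues was not paired either. Blocks of 20 consecutive library codes each held 1 library of either group, and with these blocks as a term 1927 genes were higher and 1567 lower. Against parenchyma, the same term gave 94 genes with a more positive and 1530 with a more negative effect. Without the term these were 92 and 1362.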
